A study of Mus musculus with 6 samples.

Results

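The genes described here are the protein-folding and quality-control machinery of the endoplasmic reticulum (ER): 42 genes for chaperones, stress sensors, disulfide isomerases, glycoprotein lectins, ER-associated degradation, translocation and N-glycosylation. They were picked by gene name, by their known roles and with earlier results of these data in view, from the 26123 genes of the deposited table, and all 42 were among the 16492 genes with enough counts to be tested. Liver mRNA of 6 outbred ICR mice was sequenced, 3 labelled as given crizotinib, a kinase inhibitor used against ALK-rearranged lung cancer, and 3 labelled as controls. The series text gives 300 mg/kg crizotinib after 7 days of adaptation, saline for the other arm, and collection 1 week after dosing. Its wording does not make clear which arm received the drug, so groups follow the treatment label of each sample. Each library came from a separate mouse, and no genetic modification is stated. The labels do not state sex or age.

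Proteins bound for secretion enter the ER through the Sec61 channel, lose their signal peptide, receive N-linked sugars and fold with the help of chaperones and disulfide isomerases. Proteins that do not fold are drawn back to the cytosol and degraded by the proteasome. When unfolded protein builds up, the sensors IRE1α (gene Ern1), ATF6 and PERK (gene Eif2ak3) raise the transcription of many of these genes. Hepatocytes make most plasma proteins and hold abundant rough ER.

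In the crizotinib livers most of this machinery stood above the controls, and the chaperones had the largest median difference of its 7 roles. Hspa5 (BiP, the main ER Hsp70) was 2.83-fold higher in the fit, Creld2 2.78-fold and Dnajb9 2.80-fold, while Ern1 was at 0.594 of the control level. All 3 crizotinib libraries lay above every control for 21 of the 42 genes (50%), against 10.7% of all tested genes. All 3 lay below every control for Ern1 alone among the 42 genes, against 10.3% of all tested genes. The median fitted difference over the 42 genes was 0.69 on the log2 scale, or 1.61-fold, and 38 of the 42 were above 0, whereas 8246 of the 16492 tested genes were above 0.

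No gene of the 42 passed an adjusted p of 0.05 in edgeR's quasi-likelihood test over all genes. The smallest adjusted p was 0.106, for Creld2. Over all genes that test called 0.340% in either direction and 0.0910% as higher. At an unadjusted p under 0.05, 18 of the 42 were higher (42.9%), against 8.06% of all tested genes, and 1 was lower, against 7.25%. The count of 18 changed when single libraries were left out. It was 8 without crizotinib library 2, 10 without control library 2 and 11 without control library 1. Without crizotinib library 1 it was 12, and without crizotinib library 3 it was 24. The share over all genes was not computed for those fits, so a change common to all genes cannot be told apart. DESeq2, which called 3.12% of its tested genes higher, called 9 of the 42 higher, namely Hspa5, Hsp90b1, Hyou1, Manf, Creld2, Dnajb9, Xbp1, Pdia4 and Syvn1, and limma on log2 FPKM called none. Without crizotinib library 3, edgeR called 4.11% of genes higher, and with them 6 of the 42: Creld2, Dnajb9, Xbp1, Atf6, Pdia4 and Edem1. The differences below are therefore given as measured values that did not pass the test over all genes unless stated.

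Short control elements that ATF6 and XBP1 bind are shown for 8 of the 11 genes found to hold a full copy. Pdia6, Canx and Dnajb11 also hold one and are not shown. The ER stress response element (ERSE) is CCAAT and CCACG separated by 9 bases, and ERSE-II is ATTGG and CCACG separated by 1 base. Each line gives the gene's own strand 5′ to 3′, with the element in capitals. Where the element lies on the other strand, its capitals run from CGTGG to ATTGG.
Hspa5: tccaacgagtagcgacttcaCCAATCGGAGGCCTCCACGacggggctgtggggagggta
Hsp90b1: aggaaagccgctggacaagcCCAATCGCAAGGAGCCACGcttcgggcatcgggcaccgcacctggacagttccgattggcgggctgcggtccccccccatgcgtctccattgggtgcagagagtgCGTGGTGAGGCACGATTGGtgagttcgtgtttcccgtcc
Creld2: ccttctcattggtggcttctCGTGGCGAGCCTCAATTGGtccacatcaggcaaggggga
Dnajc3: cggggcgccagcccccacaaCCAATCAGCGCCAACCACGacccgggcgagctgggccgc
Calr: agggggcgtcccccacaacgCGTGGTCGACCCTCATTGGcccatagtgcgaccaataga
Syvn1: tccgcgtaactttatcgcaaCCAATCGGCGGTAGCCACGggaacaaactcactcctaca
Derl3: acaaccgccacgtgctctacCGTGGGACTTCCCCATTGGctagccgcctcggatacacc
Herpud1: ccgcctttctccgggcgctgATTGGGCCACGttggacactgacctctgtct
The Herpud1 line holds an ERSE-II, and the other lines hold an ERSE. Sequences are from RefSeq on GRCm38.p6. The stretches lie at chr2:34772005-34772063 on the plus strand (Hspa5), chr10:86705513-86705676 on the minus strand (Hsp90b1), chr15:88819500-88819558 on the plus strand (Creld2), chr14:118937807-118937865 on the plus strand (Dnajc3), chr8:84847055-84847113 on the minus strand (Calr), chr19:6046512-6046570 on the plus strand (Syvn1), chr10:75893222-75893280 on the plus strand (Derl3) and chr8:94386357-94386407 on the plus strand (Herpud1).

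The search covered both strands of promoter windows reaching from 250 bases before to 50 bases after each annotated start. An ERSE was present in 39 of 32851 windows (0.119%), and in 9 of the 36 windows of the 42 genes (25%). Because the 42 genes were picked by their known roles in this pathway, the higher share is a description and not an independent result. Those 9 genes were Hspa5, Hsp90b1, Creld2, Dnajc3, Pdia6, Calr, Canx, Syvn1 and Derl3. An ERSE-II was in 12 of all windows (0.0365%), and among these genes in those of Herpud1 and Dnajb11. The Dnajb11 copy lies after the start. The shorter motif CCACG alone, which every ERSE and ERSE-II contains, was in 32.8% of all windows and in 25 of the 36. The XBP1 site TGACGTGG was in 0.676% of all windows and the cyclic AMP element TGACGTCA in 1.79%, and in no window of the 42 genes. The table had no window for 8 of the 42 genes. The 11 genes with an ERSE or ERSE-II had a median log2 difference of 0.89, with 7 of 11 having every crizotinib library above every control. The 23 genes with a window but neither element had a median of 0.60, with 11 of 23 so separated. The 8 genes without a window, which could not be searched, had a median of 0.86, with 3 of 8 so separated. No test between these groups was made. A full ERSE did not always go with a higher level: Derl3 has one at bases -156 to -138 and was the second lowest of the 42 by fitted difference, at -0.65. A match is a description of letters and does not show binding.

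**Figure D1:**
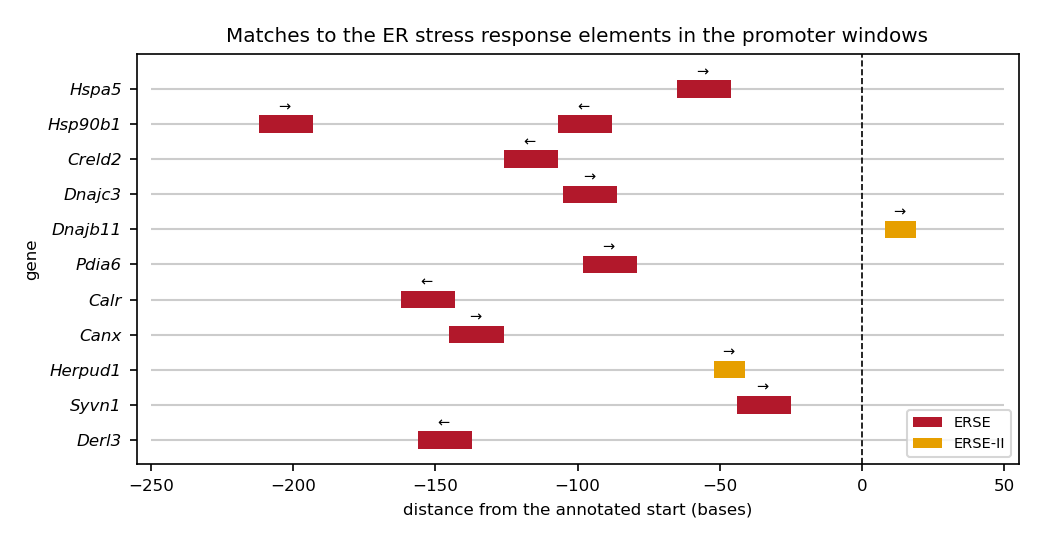
Matches to the ERSE (red) and ERSE-II (orange) along the promoter windows of the 11 genes that hold one; the horizontal axis is the distance in bases from the annotated start (dashed line), and arrows show orientation on the gene's strand. Hsp90b1 holds 2 ERSE copies, and the Dnajb11 match alone lies after the start.

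Of the 11 chaperones and cochaperones, 9 had every crizotinib library above every control, and the same number were higher at an unadjusted p under 0.05. Their median log2 difference was 1.16.
Hspa5 (chr2:34771970-34777547) measured 904, 846 and 706 CPM in crizotinib livers, against 168, 292 and 407 CPM in control livers, where CPM is the count per 1e6 counts of a TMM-scaled library size (trimmed mean of M values). The means were 819 ± 102 and 289 ± 119 CPM (SD, n = 3 each), and the groups did not overlap. The fitted log2 difference was 1.50 ± 0.44 (SE), with an edgeR adjusted p of 0.185.
Hsp90b1 (GRP94, the ER Hsp90; chr10:86690209-86705509) measured 983, 949 and 795 CPM in crizotinib livers, against 377, 396 and 509 CPM in control livers. The lowest crizotinib library was above the highest control. The log2 difference was 1.09 ± 0.37 (SE; edgeR adjusted p = 0.228).
Creld2, a secreted and ER-resident protein induced by ER stress, measured 59.3, 62.2 and 39.1 CPM in crizotinib livers, against 15.5, 18.0 and 24.3 CPM in control livers. Its means were 53.5 ± 12.6 and 19.3 ± 4.52 CPM (SD, n = 3 each). Creld2 had the smallest p of the 42 genes, with a log2 difference of 1.47 ± 0.31 (SE).

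Dnajb9 (ERdj4, a BiP cochaperone that represses IRE1α) measured 79.4, 86.3 and 47.3 CPM in crizotinib livers, against 12.7, 31.3 and 32.1 CPM in control livers. Its log2 difference was 1.49 ± 0.42 (SE; edgeR adjusted p = 0.178). Hyou1 (an ER Hsp110 that exchanges nucleotide on BiP) measured 163, 167 and 132 CPM in crizotinib livers, against 56.6, 53.4 and 95.2 CPM in control livers, a log2 difference of 1.17 ± 0.34 (SE; edgeR adjusted p = 0.184). Both genes were above every control in all crizotinib libraries. Manf, a secreted ER-stress protein, measured 155, 158 and 175 CPM in crizotinib livers, against 77.8, 44.8 and 96.5 CPM in control livers. It was the 1 chaperone highest in crizotinib library 3. Manf exons share 166 bases with 4930524O07Rik and 146 bases with Dcaf1 on the opposite strand, and 14 bases with Rbm15b on the same strand. Dnajb11 (ERdj3), Sdf2l1 (which works with ERdj3) and Dnajc3 (P58IPK, an inhibitor of PERK) were also fully separated, with log2 differences of 1.12, 0.90 and 1.21. For Dnajc3 the margin was small, since crizotinib library 3 had 108.4 CPM and control library 3 had 108.3 CPM. Dnajc10 (ERdj5, a disulfide reductase) overlapped, because its crizotinib library 3 had 16.3 CPM, under every control. Creld1, a membrane-anchored relative of Creld2, was the 1 chaperone-group gene fitted below 0, at -0.20.

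**Figure D2:**
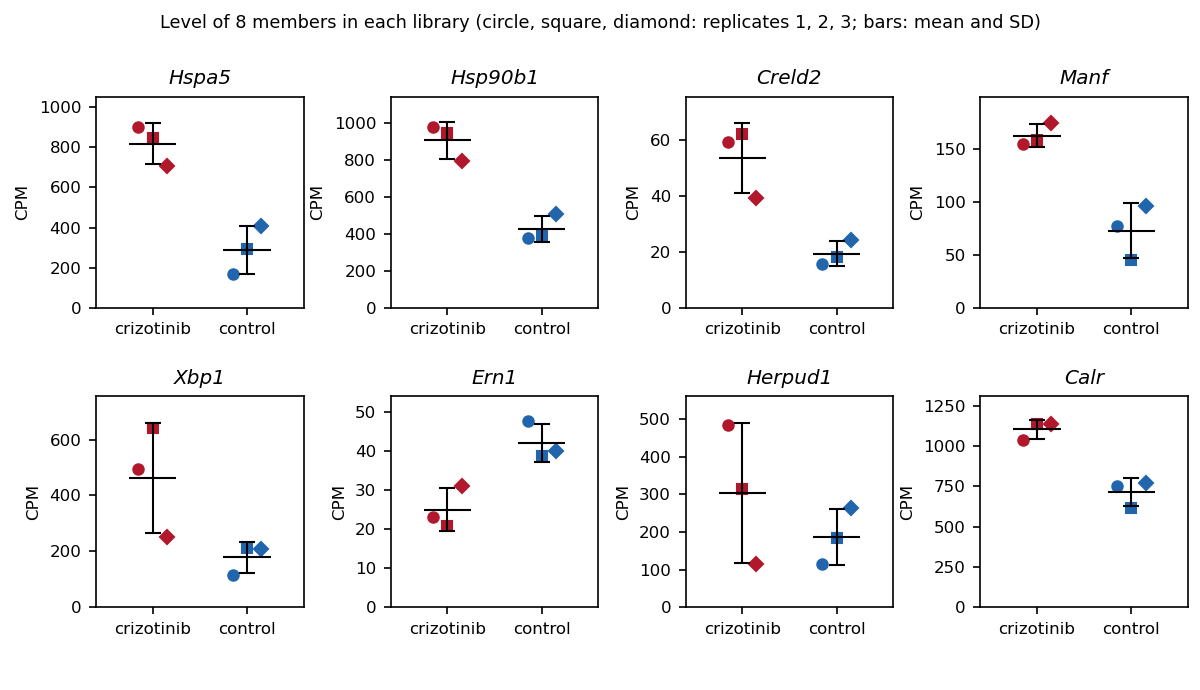
TMM-scaled CPM (vertical axes, from 0) of Hspa5, Hsp90b1, Creld2, Manf, Xbp1, Ern1, Herpud1 and Calr in each library, crizotinib left and control right, with circle, square and diamond for replicates 1, 2 and 3 and bars for mean and SD. Groups are separate for all but Herpud1, Ern1 runs the other way, and Xbp1 and Herpud1 are spread widely among crizotinib livers.

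The sensors and their transcription factors lay in both directions. Xbp1, the factor whose mRNA is spliced by IRE1α (these gene-level counts do not separate the spliced form), measured 496, 640 and 251 CPM in crizotinib livers, against 114, 211 and 208 CPM in control livers. Its log2 difference was 1.38 ± 0.47 (SE; edgeR adjusted p = 0.228), and every crizotinib library was above every control.
Ern1, which encodes IRE1α itself, measured 23.2, 20.8 and 31.2 CPM in crizotinib livers, against 47.8, 38.7 and 40.1 CPM in control livers. Its means were 25.1 ± 5.44 and 42.2 ± 4.91 CPM (SD, n = 3 each), and the log2 difference was -0.75 ± 0.26 (SE; edgeR adjusted p = 0.240). It was the 1 gene of the 42 with all crizotinib libraries below all controls.
Atf6, a membrane-bound factor released by cleavage, measured 57.1, 56.3 and 20 CPM in crizotinib livers, against 12.5, 25.9 and 19.5 CPM in control livers. Crizotinib libraries 1 and 2 were above every control, and library 3 lay within them. Its paralog Atf6b measured 25.1, 18.6 and 15.3 CPM in crizotinib livers, against 12.9, 13.5 and 10.7 CPM in control livers, and the groups did not overlap.

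Among the disulfide isomerases, Pdia4 stood apart most, with 301, 305 and 210 CPM in crizotinib livers, against 89.2, 123 and 151 CPM in control livers and a log2 difference of 1.17 ± 0.35 (SE; edgeR adjusted p = 0.194). P4hb, the founding protein disulfide isomerase, measured 1380, 1866 and 1312 CPM in crizotinib livers, against 752, 780 and 1130 CPM in control livers. Pdia3, which works with calnexin and calreticulin, was separated at 504, 588 and 630 CPM in crizotinib livers, against 399, 340 and 470 CPM in control livers, while Pdia6 overlapped at a log2 difference of 0.42. In the lectin cycle, which retains unfinished glycoproteins, Calr (calreticulin) measured 1038, 1140 and 1138 CPM in crizotinib livers, against 752, 618 and 773 CPM in control livers. Its log2 difference was 0.63 ± 0.37 (SE; edgeR adjusted p = 0.460). Uggt1, the folding sensor that re-glucosylates glycoproteins, measured 77.7, 106 and 51.8 CPM in crizotinib livers, against 59.5, 35.8 and 59.7 CPM in control livers, with overlap. Canx (calnexin) overlapped too, at 200, 242 and 183 CPM in crizotinib livers, against 66.4, 199 and 192 CPM in control livers. No gene of the 3 in the lectin cycle had an unadjusted p under 0.05.

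In ER-associated degradation the ubiquitin ligase and the mannosidase-like gene Edem1 separated most. Syvn1 (HRD1, the membrane ubiquitin ligase) measured 108, 88.2 and 90.2 CPM in crizotinib livers, against 53.3, 48.6 and 52.4 CPM in control livers. Its means were 95.6 ± 11.2 and 51.5 ± 2.49 CPM (SD, n = 3 each), with a log2 difference of 0.89 ± 0.26 (SE; edgeR adjusted p = 0.183). Its exons share 91 bases with Mrpl49 on the opposite strand. Edem1 measured 245, 244 and 134 CPM in crizotinib livers, against 91.6, 103 and 112 CPM in control livers.
Sel1l, the partner of Syvn1, measured 115, 146 and 89.9 CPM in crizotinib livers, against 76.2, 82.6 and 86.5 CPM in control livers, and was separated by a narrow margin. Edem2, a relative of Edem1, overlapped at a log2 difference of 0.31. Herpud1, a scaffold of the ligase complex, measured 485, 315 and 114 CPM in crizotinib livers, against 115, 183 and 263 CPM in control livers. Its crizotinib library 3 lay just below the lowest control, and its log2 difference was 0.71 ± 0.57 (SE; edgeR adjusted p = 0.586).
The 3 derlins, channel-associated proteins of retrotranslocation, had values on both sides of 0. Derl1 had a log2 difference of 0.47 and Derl2 of -0.12, each with overlapping groups. Derl3 was scarce, at 2.74, 3.52 and 1.02 CPM in crizotinib livers, against 4.61, 2.16 and 4.68 CPM in control livers.

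Translocation and signal-peptide genes had a median log2 difference of 0.43, and 1 of the 8 was separated. That gene, Spcs2 (a signal peptidase subunit), measured 114, 141 and 103 CPM in crizotinib livers, against 57.3, 48.6 and 79.7 CPM in control livers, with a log2 difference of 0.94 ± 0.31 (SE; edgeR adjusted p = 0.219). Sec61a1, the channel's pore subunit, measured 219, 302 and 165 CPM in crizotinib livers, against 133, 99.9 and 172 CPM in control livers, so the groups overlapped. Ssr3, of the translocon-associated protein complex, measured 229, 346 and 199 CPM in crizotinib livers, against 124, 105 and 203 CPM in control livers. The remaining translocation genes all overlapped: the small channel subunits Sec61b and Sec61g had log2 differences of 0.44 and 0.03, the translocon-associated Ssr1 and Ssr2 of 0.16 and 0.42, and the signal peptidase subunit Sec11c of 0.34.
In the oligosaccharyltransferase, which attaches N-linked sugars, Ostc measured 46.1, 69.8 and 43.7 CPM in crizotinib livers, against 16.9, 26.5 and 38.1 CPM in control livers. Rpn1 (ribophorin I) was also separated, at 223, 282 and 163 CPM in crizotinib livers, against 109, 99.6 and 153 CPM in control livers. Ddost measured 129, 148 and 102 CPM in crizotinib livers, against 80.5, 79.9 and 115 CPM in control livers, and overlapped. Rpn2 (ribophorin II) overlapped at a log2 difference of 0.38.

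**Figure D3:**
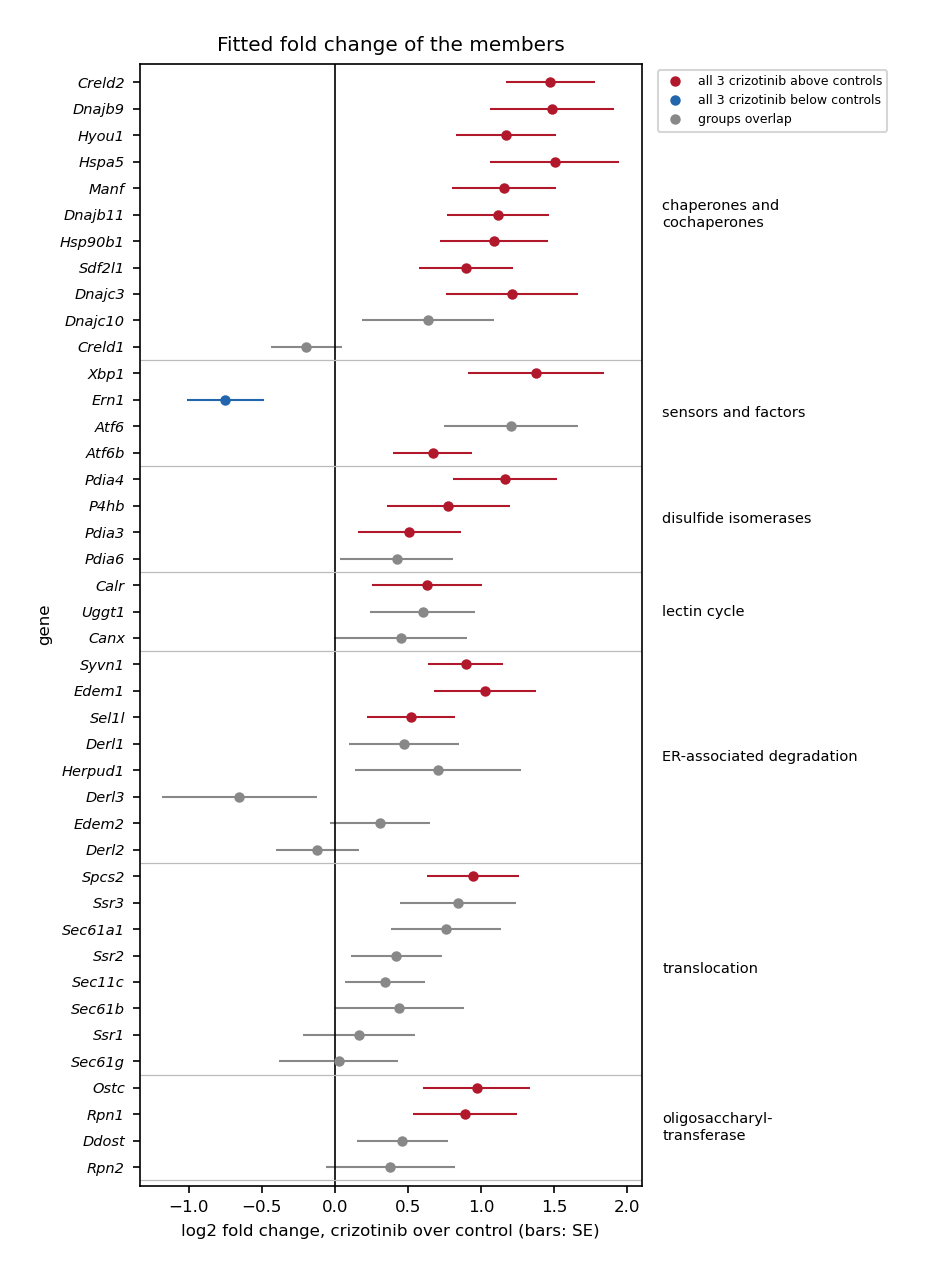
Fitted log2 difference, crizotinib over control, of the 42 genes by role, with bars for SE (horizontal axis, log2). Red marks the 21 genes with all crizotinib libraries above all controls, blue marks Ern1, and the 11 chaperones lie furthest right as a group.

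By role the median log2 difference was 1.16 for chaperones, 0.94 for sensors and factors, 0.67 for oligosaccharyltransferase, 0.64 for disulfide isomerases, 0.60 for the lectin cycle, 0.50 for degradation and 0.43 for translocation. No test of these medians against each other was made. On the FPKM scale, which also corrects for gene length, P4hb was the most abundant of the 42, at 512 ± 65.5 FPKM in crizotinib livers and 274 ± 103 FPKM in control livers (SD, n = 3 each). Calr came next, at 374 ± 52.5 FPKM in crizotinib livers and 214 ± 49.7 FPKM in control livers. Within control libraries 1 to 3, P4hb had 157, 311 and 353 FPKM and Calr had 156, 244 and 240 FPKM. The pair was thus nearly level in control library 1, and no test between them was made. Hspa5 was at 187 ± 11.2 FPKM in crizotinib livers and 62.8 ± 34.1 FPKM in control livers, the fourth and the sixth level of the 42. Derl3 was lowest in both groups, at 1.12 ± 0.519 FPKM in crizotinib livers and 1.55 ± 0.461 FPKM in control livers. FPKM values of control library 1 are lowered by its mitochondrial reads, which took 44.5% of its counts.

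The crizotinib livers differed among themselves. Crizotinib library 2 was the highest of the 6 for 26 of the 42 genes, and it was highest for 16% of all tested genes. Crizotinib library 3 was the lowest of its group for 29 of the 42 (69%), against 41.1% of all tested genes. In 11 genes, Atf6, Herpud1 and Dnajc10 among them, crizotinib libraries 1 and 2 were above every control and library 3 was not. That is 26.2% of the 42, against 14.8% of all tested genes. Median deviations from the control mean were 0.73, 0.89 and 0.41 on the log2 scale in crizotinib livers 1 to 3, against -0.17, -0.10 and 0.37 in control livers. The same genes' summed share of all counts was 0.986%, 1.07% and 0.976% in crizotinib livers, against 0.310%, 0.635% and 0.667% in control livers. Raw shares include mitochondrial counts, which took 44.5% of control library 1 and lower its share. In TMM-scaled CPM the sums were 9731, 10963 and 8049 in crizotinib livers, against 4664, 5037 and 6715 in control livers.

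**Figure D4:**
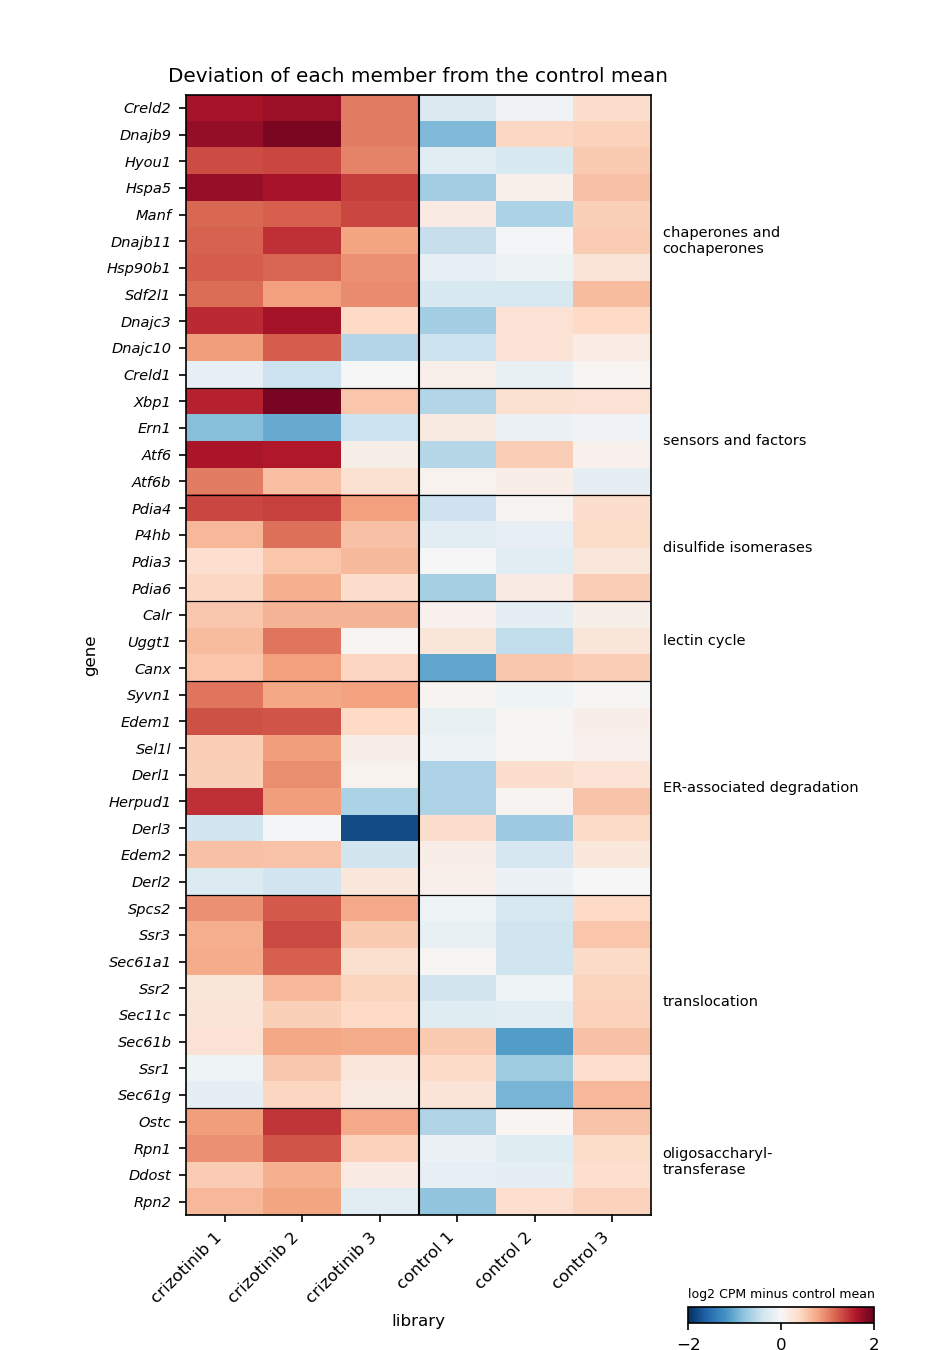
Log2 CPM minus the mean of the control livers for each of the 42 genes (rows, by role) in each library (columns, crizotinib left), in colour from -2 to 2. Crizotinib columns 1 and 2 are the highest for most chaperones, and column 3 is nearer to the controls for Xbp1, Atf6 and Herpud1.

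Library totals ran between 51123361 and 67947970 counts and detected genes between 20327 and 20896. Mitochondrially encoded genes took 5.53% to 14.4% of counts in crizotinib livers and 7.47% to 44.5% in control livers. With or without them edgeR called none of the 42 genes, so there was no call to lose. Hepatocyte markers, 8 of 9 listed being in the table, summed to 39157 to 48922 CPM in crizotinib livers and 73151 to 91084 CPM in control livers. Most of that gap was Alb (albumin), which averaged 17776 CPM in crizotinib livers and 49749 CPM in control livers, and none of the 8 had an unadjusted p under 0.05. Of the 8, 6 were fitted below 0, and the list median log2 difference was -1.01. Alb, Apoa1 and Serpina1a, 3 of the 8, had every crizotinib library below every control, against 10.3% of all tested genes. Apoh was near the control level at 0.943-fold, and Ambp and Ahsg went the other way at 1.72-fold and 1.22-fold. The 18 acute-phase genes, plasma proteins that hepatocytes make in inflammation, summed to 281059, 282662 and 36683 CPM in crizotinib livers, against 16330, 37449 and 21792 CPM in control livers, so crizotinib library 3 again stood apart from libraries 1 and 2. Of these, 17 were higher at an unadjusted p under 0.05, and the smallest edgeR adjusted p was 0.0988. Their part in the ER values was not tested. Markers of plasma cells, which also hold much ER, summed to 49.1 to 122 CPM in crizotinib livers and 34.9 to 126 CPM in control livers (6 of 7 in the table). Pancreatic acinar markers, 5 of 15 in the table, summed to 6.15 to 7.22 CPM in crizotinib livers and 21.1 to 43.9 CPM in control livers. In control livers that sum was nearly all Cela1, at 19.3 to 41.4 CPM, against 1.85 to 6.53 CPM in crizotinib livers. Cela2a measured 4.48, 1.28 and 0.619 CPM in crizotinib livers, against 1.20, 1.53 and 1.81 CPM in control livers. It thus exceeded Cela1 in crizotinib library 1. The digestive-enzyme genes Prss2 and Try5 were at or near 0 in every library. Kupffer cell markers, all 12 in the table, summed to 40.9 to 72.6 CPM in crizotinib livers and 390 to 506 CPM in control livers; 7 of the 12 fell in edgeR's adjusted test. Stellate cell markers summed to 156 to 248 CPM in crizotinib livers and 247 to 464 CPM in control livers, with 6 of 10 lower at an unadjusted p under 0.05. Endothelial markers summed to 46.7 to 76.1 CPM in crizotinib livers and 72.5 to 200.1 CPM in control livers, with 4 of 8 lower by the same measure. Neutrophil markers were scarce, and summed to 25.2, 11.7 and 3.47 CPM in crizotinib livers, against 2.46, 5.87 and 1.93 CPM in control livers. As with the acute-phase genes, crizotinib library 3 was the lowest of its group. Cholangiocyte markers summed to 95 to 181 CPM in crizotinib livers and 55 to 103 CPM in control livers, and B cell markers to 21.5 to 48.8 CPM in crizotinib livers and 10.4 to 43.5 CPM in control livers. The part of these cell types in the ER values was not tested. In bulk liver, fewer cells of a type and less RNA per cell cannot be told apart. For gene length, log2 deviations over 11146 genes were taken from the mean of all 6 libraries, not from the control mean. The shortest quartile had medians of -0.18, -0.11 and 0.19 in crizotinib livers, against 0.01, 0.01 and 0.13 in control livers. The longest quartile had 0.14, 0.13 and -0.07 in crizotinib livers, against -0.05, -0.02 and -0.11 in control livers. The 10 ER genes in the shortest quartile had a median log2 difference of 0.58, and the 7 in the longest quartile had 0.52.

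Other genes of the same pathways were read from lists of 125 names, of which 121 were tested. None passed edgeR's adjusted test; 23 were higher and 1 lower at an unadjusted p under 0.05, and DESeq2 called 7 higher. Their median log2 difference was 0.35, and 97 of 121 were above 0. The PERK and ATF4 arm had the largest list median, at 0.84 over 14 genes, with 10 fitted above 0 and 4 below. In 5 of the 14 (35.7%) every crizotinib library was above every control, against 10.7% of all tested genes. Median deviations of this list were 1.20, 0.49 and 0.14 in crizotinib livers, against -0.12, 0.27 and 0.02 in control livers. Crizotinib library 3 thus lay within the controls. Asns, an ATF4 target for asparagine synthesis, measured 10, 8.77 and 1.84 CPM in crizotinib livers, against 1.11, 1.13 and 0.478 CPM in control livers, with a log2 difference of 2.92 ± 0.67 (SE; edgeR adjusted p = 0.134).
Eif2ak3, the gene for PERK, measured 28.3, 24.3 and 10.9 CPM in crizotinib livers, against 5.69, 9.57 and 8.06 CPM in control livers, without overlap. Atf4, the factor that PERK signalling favours in translation, measured 254, 183 and 112 CPM in crizotinib livers, against 98.1, 77.6 and 72.9 CPM in control livers, and was also separated. Ddit3 (CHOP), a pro-death factor downstream of ATF4, measured 6.08, 4.04 and 9.44 CPM in crizotinib livers, against 9.92, 6.53 and 6.97 CPM in control livers, with overlapping groups and a log2 difference of -0.26.
Further folding genes had a median of 0.22, and Txndc11, a thioredoxin-domain ER protein, was the clearest at 66.4, 63.5 and 35.3 CPM in crizotinib livers, against 24.4, 23.5 and 20 CPM in control livers. Prdx4, the ER peroxiredoxin, had all crizotinib libraries below every control, with a log2 difference of -0.73. Further degradation genes had a median of 0.40, with Edem3, Ube2g2 and Selenos separated at log2 differences of 1.03, 1.15 and 1.01. Further translocation and glycosylation genes had a median of 0.48, led by Stt3b, a catalytic subunit of oligosaccharyltransferase, at 1.35.
Early secretory traffic genes had a median of 0.33, and Sec23b, a COPII coat subunit, measured 32.6, 33.3 and 31.8 CPM in crizotinib livers, against 16.5, 17.9 and 20 CPM in control livers. Among ER membrane factors, Creb3l2 was separated at a log2 difference of 1.44. Creb3l3, the hepatocyte factor that drives acute-phase genes, overlapped at 181, 355 and 134 CPM in crizotinib livers, against 188, 228 and 185 CPM in control livers.

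**Figure D5:**
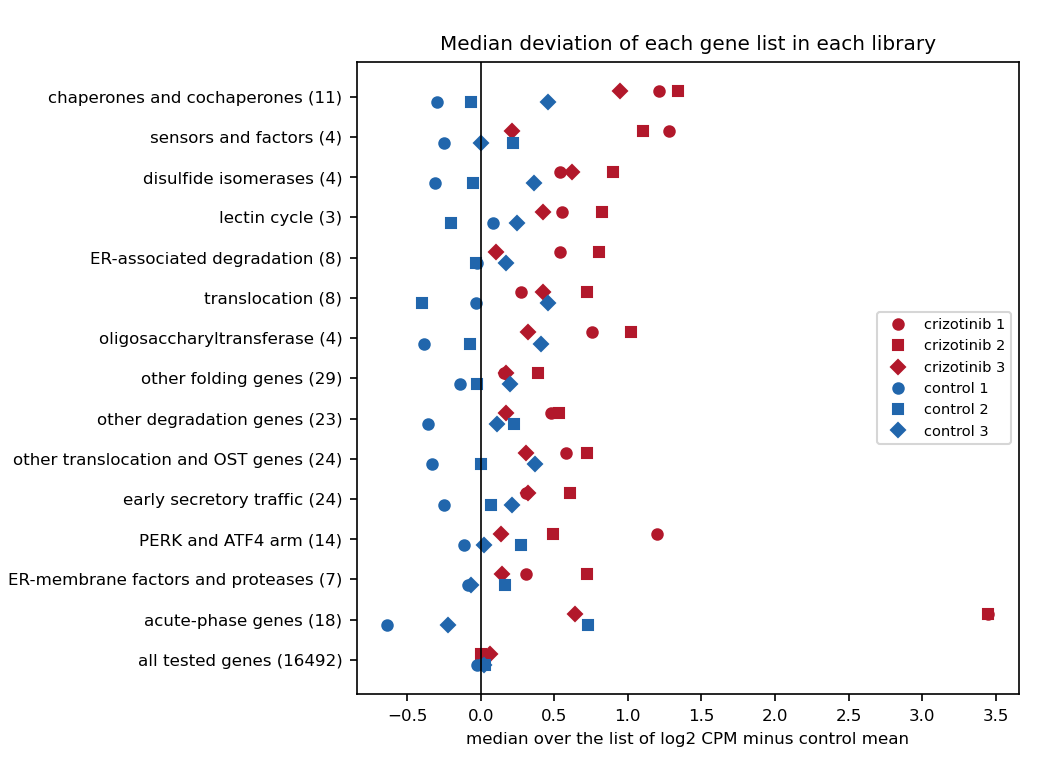
Median log2 CPM deviation from the control mean for each gene list (rows, genes tested in brackets) in each library (points). Acute-phase genes spread far wider than the ER lists, with crizotinib libraries 1 and 2 at 3.45 and crizotinib library 3 at 0.64.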

How the data were processed

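Liver mRNA was sequenced from 3 crizotinib and 3 control ICR mice, with RNA taken by an RNeasy kit and libraries made with a SMARTer mRNA kit, per the labels' protocols. Per the file headers, the table lists raw counts and FPKM of 26123 genes for all 6 libraries. The deposited counts are whole and unscaled. The deposited FPKM (fragments scaled by gene length and library size) matched the counts times a gene factor and a library factor, with a largest log2 residual of 0.027 among 8285 genes. No source used here names the aligner, the counting tool or whether counting used strand, and several genes share exon bases with neighbours, among them Manf, Syvn1, Derl2, Rpn2 and Sec61a1.

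Groups follow the treatment label. edgeR 4.0.16 in R 4.3.3 used TMM scaling, a minimum count of 10 and the quasi-likelihood test, with Benjamini-Hochberg adjustment over all 16492 tested genes. The filter removed at most 0.0553% of a library's counts. Alternatives were DESeq2 1.42.0, limma 3.58.1 on log2(FPKM + 1) and log2(FPKM + 0.1), DESeq2 size factors in edgeR, no filter, a replicate block, no mitochondrial genes and leaving out each library. The edgeR, DESeq2 and limma fits were tried on simulated counts with known changes, and the motif search on made-up windows. In the simulated counts edgeR recovered 0% of 2-fold and 20% of 4-fold changes. DESeq2 recovered 8% and 62%, and 29% of all its calls there were false, against 7.37% for edgeR. With 3 against 3, an exact permutation test of 1 gene cannot go below p = 0.1, and counting error is small beside the spread between mice (common biological coefficient of variation 0.470). Genes named in full are the 3 smallest p-values of each role plus Hspa5, Xbp1, Ern1, Atf6, Herpud1, Calr and Derl3, and, of each further list, up to 3 plus Ddit3, Atf4 and Creb3l3. All values of Hsp90b1, Manf and Atf6b are also given, a choice made after their values were seen. The genes and lists were chosen with earlier results of these data known. Positions are the deposited ones, on GRCm38. Promoter windows are RefSeq's on GRCm38.p6, matched for 34 of the 42 genes. Protein sequences were not analysed here.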

Additional observations from a re-analysis of the deposited data

How the results depend on the processing

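edgeR called 56 genes of all those tested, and none of the 42 ER genes in either direction. DESeq2 called 1105 genes, 9 of the 42 higher and 7 of the other pathway genes higher. With the replicate number as a block, edgeR called 0 genes; the numbers do not pair the libraries, since same-numbered libraries had correlations of -0.15, 0.16 and -0.09. Leaving out 1 library gave 0 to 1504 genes called, 0 to 6 of the 42 higher, and 0 to 10 higher and 0 to 1 lower of the other pathway genes. The top of each range came without crizotinib library 3. Leaving out crizotinib library 3 and control library 1 together, a choice made after seeing the data, gave 1718 genes called, 6 of the 42 higher, Ern1 lower (adjusted p = 0.0487), and 11 higher and 1 lower of the other pathway genes. The median log2 difference of the 42 ran between 0.59 and 0.87 over the leave-one-out fits. In the TMM values 22 of the 42 had no overlap in either direction, against 3462 of the 16492 tested genes. The count was 25 in FPKM and 22 to 35 with 1 library left out, which can only raise it. The share over all genes was not computed for FPKM or with a library left out, so these counts have no background. Derl2 turned positive without crizotinib library 2 (0.00069; range -0.35 to 0.00069) and in limma (0.0468 and 0.0501). Sec61g turned negative without crizotinib library 2 (-0.13), crizotinib library 3 (-0.0016) or control library 2 (-0.34), within a range of -0.34 to 0.38. Ssr1 did so without crizotinib library 2 (-0.00048) or control library 2 (-0.14; range -0.14 to 0.33), and Creb3l3 without crizotinib library 2 (range -0.35 to 0.41). The rest of the 63 genes followed singly, which were the 42 and named genes of the further pathway lists, kept their direction in the settings run. Cell-type and acute-phase marker genes were not followed singly across these settings. The cause was not tested.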
